A study of Mus musculus with 8 samples.

Results

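The Ly6 cluster on mouse chromosome 15 was examined through the ATAC-seq regions linked to 6 of its genes, Ly6e, Ly6i, Ly6a, Ly6c1, Ly6c2 and Ly6g. A region was taken as a member when the nearest RefSeq protein-coding gene within 50 kb on mm10 was one of these genes. This gave 20 of the 61196 regions, 7 for Ly6e, 6 for Ly6c2, 4 for Ly6c1 and 1 each for Ly6i, Ly6a and Ly6g, over 257.9 kb. The link rests on distance alone, not on any measured contact with a gene.

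ATAC-seq reads open chromatin from insertions of the Tn5 transposase, and was done on sorted mouse bone marrow progenitors of 4 groups with 2 libraries each. The labels name the groups cMoP (in the field, the common monocyte progenitor), proNeu1 and proNeu2 (early neutrophil progenitors), and GMP-MoP, a name that the labels do not spell out; 5000 sorted cells went into each tube. The labels used here state no genotype, strain, age, treatment, pooling of animals or sort gate, so whether an antibody to a Ly6 protein took part in the sorts is not known here. The series is about monocyte progenitors that arise by way of proNeu1, so the question for each region is how its accessibility in GMP-MoP stands against cMoP and the proNeu groups.

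Ly6 proteins are small cell-surface proteins held in the membrane by a glycosylphosphatidylinositol anchor, and their genes arose by repeated duplication. Ly6C, the product of Ly6c1 and Ly6c2, marks monocytes and their progenitors, Ly6G marks neutrophils, and Ly6a encodes the stem cell antigen Sca-1, so the family supplies the standard surface labels of mouse myeloid sorting. Ly6e and Ly6a are also interferon-inducible genes.

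The RefSeq promoter table used here (GRCm38.p6, the assembly of mm10) matched 3 of the 6 genes, Ly6c1, Ly6c2 and Ly6g. The 250 bases before the start are shown because these 3 promoters can be aligned with each other and only that of Ly6c2 lay in an open region. They are written 5′ to 3′ on the strand of the gene, at chr15:75048838-75049087 (minus strand) for Ly6c1, chr15:75111972-75112221 (minus strand) for Ly6c2 and chr15:75155011-75155260 (plus strand) for Ly6g. For Ly6c1 and Ly6c2 the starts used, 75048837 and 75111971, lie inside the RefSeq gene intervals, which end at 75048920 and 75112066. Part of each of these printed stretches thus lies within the annotated gene. Capitals mark GAGGAAGT, a core motif of PU.1, a transcription factor of the myeloid lineage.
Ly6c1: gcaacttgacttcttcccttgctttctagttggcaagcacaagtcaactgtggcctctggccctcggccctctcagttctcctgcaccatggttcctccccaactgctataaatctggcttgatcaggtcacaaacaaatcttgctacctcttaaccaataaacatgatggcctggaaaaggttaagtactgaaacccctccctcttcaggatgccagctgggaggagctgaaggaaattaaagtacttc
Ly6c2: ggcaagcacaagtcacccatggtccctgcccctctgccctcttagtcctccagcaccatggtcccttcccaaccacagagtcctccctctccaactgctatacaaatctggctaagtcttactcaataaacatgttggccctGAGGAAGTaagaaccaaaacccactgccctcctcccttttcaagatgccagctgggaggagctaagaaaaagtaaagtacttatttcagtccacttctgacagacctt
Ly6g: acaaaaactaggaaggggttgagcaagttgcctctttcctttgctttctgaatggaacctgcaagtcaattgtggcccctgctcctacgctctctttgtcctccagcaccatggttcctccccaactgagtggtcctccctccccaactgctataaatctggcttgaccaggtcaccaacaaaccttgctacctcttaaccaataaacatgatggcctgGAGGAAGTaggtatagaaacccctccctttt
Aligned pairwise, Ly6c1 and Ly6c2 were identical at 164 of 216 aligned bases (75.9%), Ly6c1 and Ly6g at 172 of 206 (83.5%), and Ly6c2 and Ly6g at 135 of 173 (78.0%), with 68, 88 and 154 further bases opposite gaps. GAGGAAGT, searched on both strands, began at position -108 from the start in Ly6c2 and at -31 in Ly6g, and was not in the printed stretch of Ly6c1. A further copy in Ly6c2 stood past the start, at 27. Each of these genes has a second start in the table, at 75048663 for Ly6c1, 75111937 for Ly6c2 and 75155329 for Ly6g. From that one the motif stood at -127 in Ly6c1, at -142 and -8 in Ly6c2, and at -99 and 27 in Ly6g. GAGGAAGT occurred in 2.44% of all such 250-base stretches. The motif TATAAA, in 12.4% of all such stretches, stood in Ly6c1 and Ly6g and not in this stretch of Ly6c2. Motifs of other transcription factors were also searched. The RUNX motif TGTGGTT (in 4.39% of stretches) stood at -180 in Ly6c2, on the opposite strand. The C/EBP motif TTGCNNAA (in 9.57%) stood at -232 in Ly6g, also on the opposite strand. The Ly6c2 promoter lay inside the region at chr15:75111563-75112469, whereas the nearest region was 11338 bp from the Ly6c1 window and 12544 bp from the Ly6g window. Of all RefSeq promoter windows, 42.4% overlapped a region. The placing of reads that match more than 1 gene of the family is not stated in the labels, and its part in the counts at Ly6c1, Ly6c2, Ly6g, Ly6a and Ly6i was not tested.

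Totals over all regions ran from 1388525 to 1907810 counts per library, of which 448 to 633 counts (0.0291 to 0.0338%) fell in the 20 Ly6 regions. Each level is in CPM (the count divided by the TMM-adjusted size of its library), and 3 counts were worth 1.58 to 2.18 CPM. The proNeu2 libraries differed from each other by little more than sampling noise (chi-square per degree of freedom 1.01, against 1.30 to 1.38 in the other groups), and they were kept as separate samples since the labels call them biological replicates. Summed over their regions, the 6 monocyte marker genes gave 649 to 694 CPM in cMoP, 508 to 569 in GMP-MoP, 396 to 405 in proNeu1 and 375 to 402 in proNeu2. The 9 neutrophil marker genes gave 345 to 346, 428 to 453, 876 to 912 and 1028 to 1043 CPM in the same order. The 6 stem and early progenitor genes gave 696 to 756, 744 to 768, 590 to 614 and 463 to 481 CPM in that order. Over all libraries, B cell markers gave 69.9 to 87.9 CPM (5 of 6 genes had a region, Cd79a none), T and NK cell markers 228 to 292 (4 of 6, Cd3e and Cd3g none), endothelial markers 192 to 261 (6 of 6) and erythroid and megakaryocyte markers 60.1 to 82.7 (5 of 6, Hba-a1 none). The part of other cell types in the Ly6 values was not tested. In these bulk samples, fewer cells with an open region and less opening per cell cannot be told apart.

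**Figure D1:**
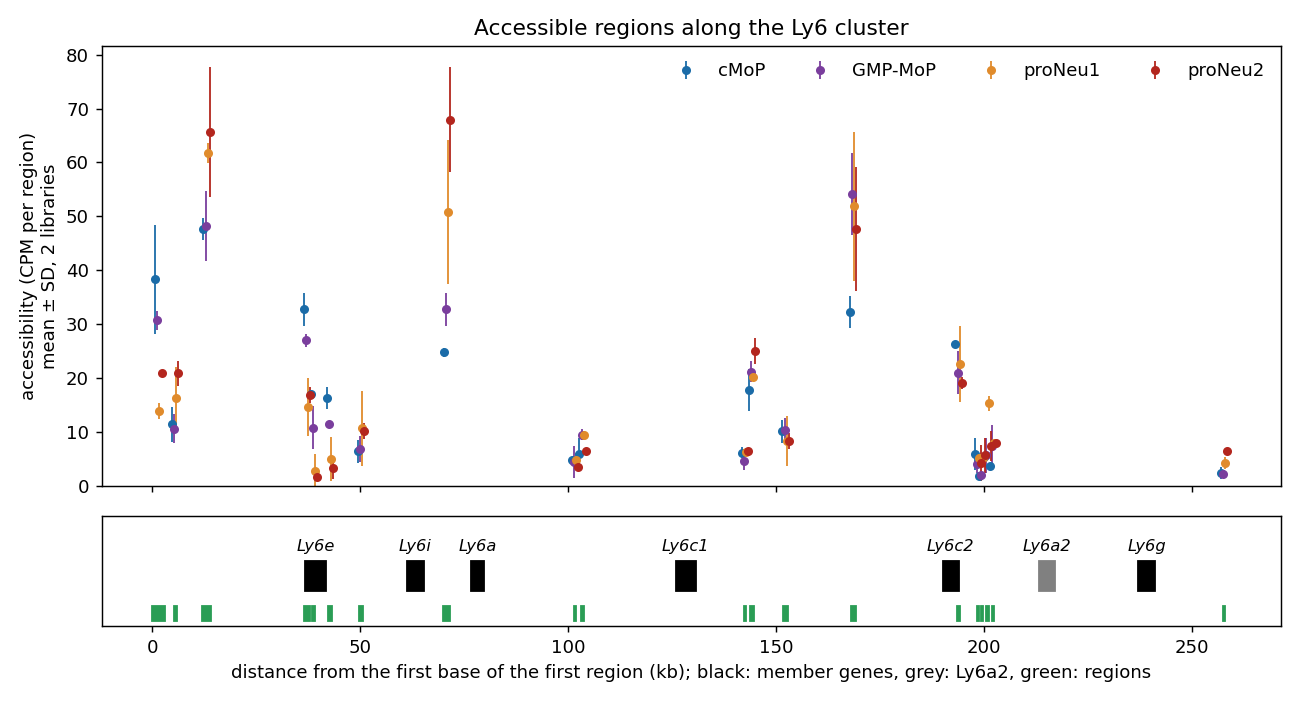
Group mean CPM ± SD of 2 libraries at each of the 20 regions (vertical axis, not scaled by width) by distance in kb from the first base of the first region (horizontal axis), with genes as boxes and regions as green ticks beneath. Regions above 40 CPM in some group lie below Ly6e, between Ly6i and Ly6a, and below Ly6c2, and the order of the groups differs from region to region.

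Differences were tested with edgeR over all 47506 regions that passed a filter on low counts, and a region was called at an adjusted p under 0.05. The filter asks for enough counts in 2 libraries, so a region can pass it only through groups where it is high. Of the 20 Ly6 regions 17 passed this filter, and 9 were called in at least 1 of the 6 comparisons: 6 of Ly6e, 1 of Ly6i and 2 of Ly6c2. No share of all regions called in at least 1 comparison is given. In proNeu2 against cMoP alone, 52.6% of all tested regions were called, so the count of 9 is not read as a result about Ly6. Below and above a gene mean toward lower and higher coordinates.

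Read against all regions, the share of Ly6 regions called was near the background in most comparisons. GMP-MoP against cMoP gave 1 of 17 regions (5.88%), where 5.45% of all tested regions were called, with 1 higher (background 1.98%) and 0 lower (3.47%). GMP-MoP against proNeu1 gave 6 (35.3%) against a background of 24.1%, with 4 higher (11.6%) and 2 lower (12.5%). All 6 of these calls ended with DESeq2, whereas the backgrounds are those of the edgeR fit and no share over all regions is given for DESeq2. GMP-MoP against proNeu2 gave 6 (35.3%) against 39.2%, with 3 higher (20%) and 3 lower (19.2%). For proNeu1 against cMoP 7 regions were called (41.2%) against 42.4%, with 3 higher (20.6%) and 4 lower (21.9%). For proNeu2 against cMoP 8 were called (47.1%) against 52.6%, with 4 higher (25.2%) and 4 lower (27.4%). For proNeu2 against proNeu1 edgeR called 0 of 17, where 0.0758% of all regions were called (0.00842% higher and 0.0674% lower), with 2 at an unadjusted p under 0.05 and 0 called by DESeq2. The median log2 difference of the 17 regions ran from -0.08 to 0.17 over the 6 comparisons, beside -0.02 to 0.04 for all regions.

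The Ly6e regions split into opposite patterns. Those in and next to the gene and one 33.8 kb below it had their highest mean in cMoP, an intermediate one in GMP-MoP and lower ones in the proNeu groups, while regions 31.0 and 22.7 kb below the gene had their highest mean in proNeu2. The largest log2 differences were at chr15:74956654-74957418, inside the Ly6e gene. Its levels in replicates 1 and 2 were 17.2 and 16.9 CPM in cMoP, 7.99 and 13.6 in GMP-MoP, 4.96 and 0.678 in proNeu1, and 1.82 and 1.33 in proNeu2. The raw counts behind them were 32 and 32, 11 and 24, 7 and 1, and 3 and 2. With so few proNeu counts, the region passed the filter on low counts only through cMoP and GMP-MoP, where it is high. All cMoP and GMP-MoP libraries lay above all proNeu libraries, and cMoP lay above GMP-MoP. Against cMoP the region fell by 2.59 log2 units (SE 0.464, adjusted p 8.21e-07) in proNeu1 and fell by 3.36 log2 units (SE 0.511, adjusted p 3.28e-09) in proNeu2. GMP-MoP was higher than proNeu2 by 2.75 log2 units (SE 0.578, adjusted p 3.81e-05) and higher than proNeu1 by 1.97 log2 units (SE 0.523, adjusted p 0.00229). The last of these was not called with DESeq2 (adjusted p 0.111), without proNeu1 replicate 2 (0.176) or without GMP-MoP replicate 2 (0.158). These sizes moved with the proNeu1 libraries: the log2 difference from cMoP was -4.47 without proNeu1 replicate 1 and -1.73 without replicate 2, and that of GMP-MoP from proNeu1 was 3.89 and 1.15.

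The neighbouring region at chr15:74960542-74961365, 638 bp above Ly6e, had 17.7 and 14.8 CPM in cMoP, 11.6 and 11.3 in GMP-MoP, 7.79 and 2.03 in proNeu1, and 1.82 and 4.65 in proNeu2. The 4 groups kept the same order of means, and only the proNeu groups overlapped each other. This region too passed the filter through cMoP and GMP-MoP, and the proNeu libraries alone would not have passed it. Against cMoP it fell by 1.73 log2 units (SE 0.411, adjusted p 0.000218) in proNeu1 and fell by 2.33 log2 units (SE 0.442, adjusted p 1.94e-06) in proNeu2. GMP-MoP was higher than proNeu1 by 1.23 log2 units (SE 0.456, adjusted p 0.0354) and than proNeu2 by 1.83 log2 units (SE 0.490, adjusted p 0.00138). Without proNeu1 replicate 2 the calls of proNeu1 ended against cMoP (log2 difference -1.01, adjusted p 0.0832) and GMP-MoP (0.55, adjusted p 0.514), while without replicate 1 the differences were -2.91 and 2.45. The GMP-MoP call against proNeu1 also ended with loess offsets (0.0887), with DESeq2 (0.288) and without GMP-MoP replicate 1 (0.0916) or 2 (0.144), and that against proNeu2 ended with DESeq2 (0.0597) and without proNeu2 replicate 1 (0.0898). Without proNeu2 replicate 2 the differences of that group were -3.04 from cMoP and, for GMP-MoP from it, 2.58.

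The region over the lower end of Ly6e, chr15:74954613-74956237, measured 34.9 and 30.6 CPM in cMoP, 26.1 and 27.8 in GMP-MoP, 18.4 and 10.9 in proNeu1, and 15.8 and 17.9 in proNeu2. Every library was above 10 CPM, with no overlap between the proNeu libraries and the others. Against cMoP it fell by 1.17 log2 units (SE 0.265, adjusted p 0.000103) in proNeu1 and fell by 0.96 log2 units (SE 0.250, adjusted p 0.000561) in proNeu2. GMP-MoP was higher by 0.89 log2 units (SE 0.284, adjusted p 0.0125) than proNeu1 and by 0.68 log2 units (SE 0.269, adjusted p 0.0330) than proNeu2. The GMP-MoP call against proNeu1 ended with DESeq2 (0.174), without proNeu1 replicate 2 (log2 difference 0.55, adjusted p 0.283) or without GMP-MoP replicate 2 (0.116). That against proNeu2 ended with no filter (0.0540), with DESeq2 (0.227), and without proNeu2 replicate 1 (0.213) or 2 (0.0914) or GMP-MoP replicate 1 (0.0726) or 2 (0.182).

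The wide region 33.8 kb below Ly6e, chr15:74918171-74921224, shared the cMoP-high order. It had 31.2 and 45.4 CPM in cMoP, 31.9 and 29.5 in GMP-MoP, 14.9 and 12.9 in proNeu1, and 20.7 and 21.2 in proNeu2. Both proNeu groups lay below all other libraries, proNeu1 lowest, and cMoP overlapped GMP-MoP. Against cMoP it fell by 1.46 log2 units (SE 0.259, adjusted p 5.99e-07) in proNeu1 and fell by 0.87 log2 units (SE 0.231, adjusted p 0.000693) in proNeu2, the latter lost without cMoP replicate 2 (-0.54, adjusted p 0.122). GMP-MoP was higher than proNeu1 by 1.14 log2 units (SE 0.279, adjusted p 0.000909; 0.0569 with DESeq2), while its difference of 0.54 from proNeu2 was not called (adjusted p 0.0696). None of these 4 regions was called between GMP-MoP and cMoP. The summed monocyte markers above were also highest in cMoP and next in GMP-MoP, and the stem and early progenitor markers were also lower in the proNeu groups. The part of either in these results was not tested.

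At 2 regions between these the proNeu groups had the higher means. The Ly6e region of highest CPM, chr15:74930257-74932294 (2038 bp wide), 22.7 kb below the gene and over the long noncoding RNA gene Gm39556, had 46.2 and 49.1 CPM in cMoP, 43.6 and 52.7 in GMP-MoP, 63.0 and 60.4 in proNeu1, and 74.2 and 57.1 in proNeu2. The proNeu libraries were the higher ones without overlap, by modest steps. In proNeu2 it was higher by 0.47 log2 units (SE 0.173, adjusted p 0.0170) than in cMoP, and GMP-MoP was lower than proNeu2 by a log2 difference of -0.44 (SE 0.179, adjusted p 0.0395). Both calls ended with total counts (0.0747 and 0.181), loess offsets (log2 differences 0.11 and -0.11, adjusted p 0.621 and 0.648), DESeq2 (0.169 and 0.222) and without proNeu2 replicate 1 (0.277 and 0.452). The second difference was -0.28 with total counts and -0.25 without proNeu2 replicate 1. The first also ended without cMoP replicate 1 (0.0544), and the second without GMP-MoP replicate 1 (0.177) and in a fit of the 4 libraries alone (0.0990).

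At chr15:74923342-74924058, 31.0 kb below Ly6e and over the pseudogene Gm6610, levels were 9.14 and 13.7 CPM in cMoP, 8.71 and 12.5 in GMP-MoP, 12.0 and 20.3 in proNeu1, and 22.5 and 19.2 in proNeu2. Only proNeu2 stood clear of cMoP and GMP-MoP. It was higher than cMoP by 0.87 log2 units (SE 0.303, adjusted p 0.0108), and GMP-MoP was lower than proNeu2 by a log2 difference of -0.95 (SE 0.320, adjusted p 0.0117). Both calls ended with DESeq2 (0.166 and 0.162) and without proNeu2 replicate 1 (0.0867 and 0.109), the first also without cMoP replicate 1 (0.130) and the second without GMP-MoP replicate 1 (0.0917). The last Ly6e region, 8071 bp above the gene, was called in no comparison.

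The only region linked to Ly6i rose toward the proNeu groups. It lies at chr15:74988180-74989836, between Ly6i (4746 bp away) and Ly6a (5041 bp away), so the nearest-gene link separates these genes by little. The region also lies over the pseudogene Gm8000 and the long noncoding RNA gene Gm28068, which the link to protein-coding genes leaves out. Its levels were 24.2 and 25.3 CPM in cMoP, 34.9 and 30.6 in GMP-MoP, 60.2 and 41.4 in proNeu1, and 74.8 and 61.1 in proNeu2. No group overlapped the next one, in the order cMoP, GMP-MoP, proNeu1, proNeu2. It rose against cMoP by 1.03 log2 units (SE 0.212, adjusted p 1.71e-05) in proNeu1 and by 1.46 log2 units (SE 0.197, adjusted p 3.40e-11) in proNeu2. GMP-MoP was lower than proNeu2 by a log2 difference of -1.07 (SE 0.194, adjusted p 1.98e-06) and lower than proNeu1 by -0.64 (SE 0.208, adjusted p 0.0152). This last call ended with total counts (0.0557), loess offsets (-0.39, adjusted p 0.173), DESeq2 (0.224) and without proNeu1 replicate 1 (-0.35, adjusted p 0.388) or GMP-MoP replicate 2 (0.169). The step from proNeu1 to proNeu2, 0.43, was not called (adjusted p 0.427). The summed neutrophil markers above are ordered in the same way over the groups, and their part in this result was not tested.

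**Figure D2:**
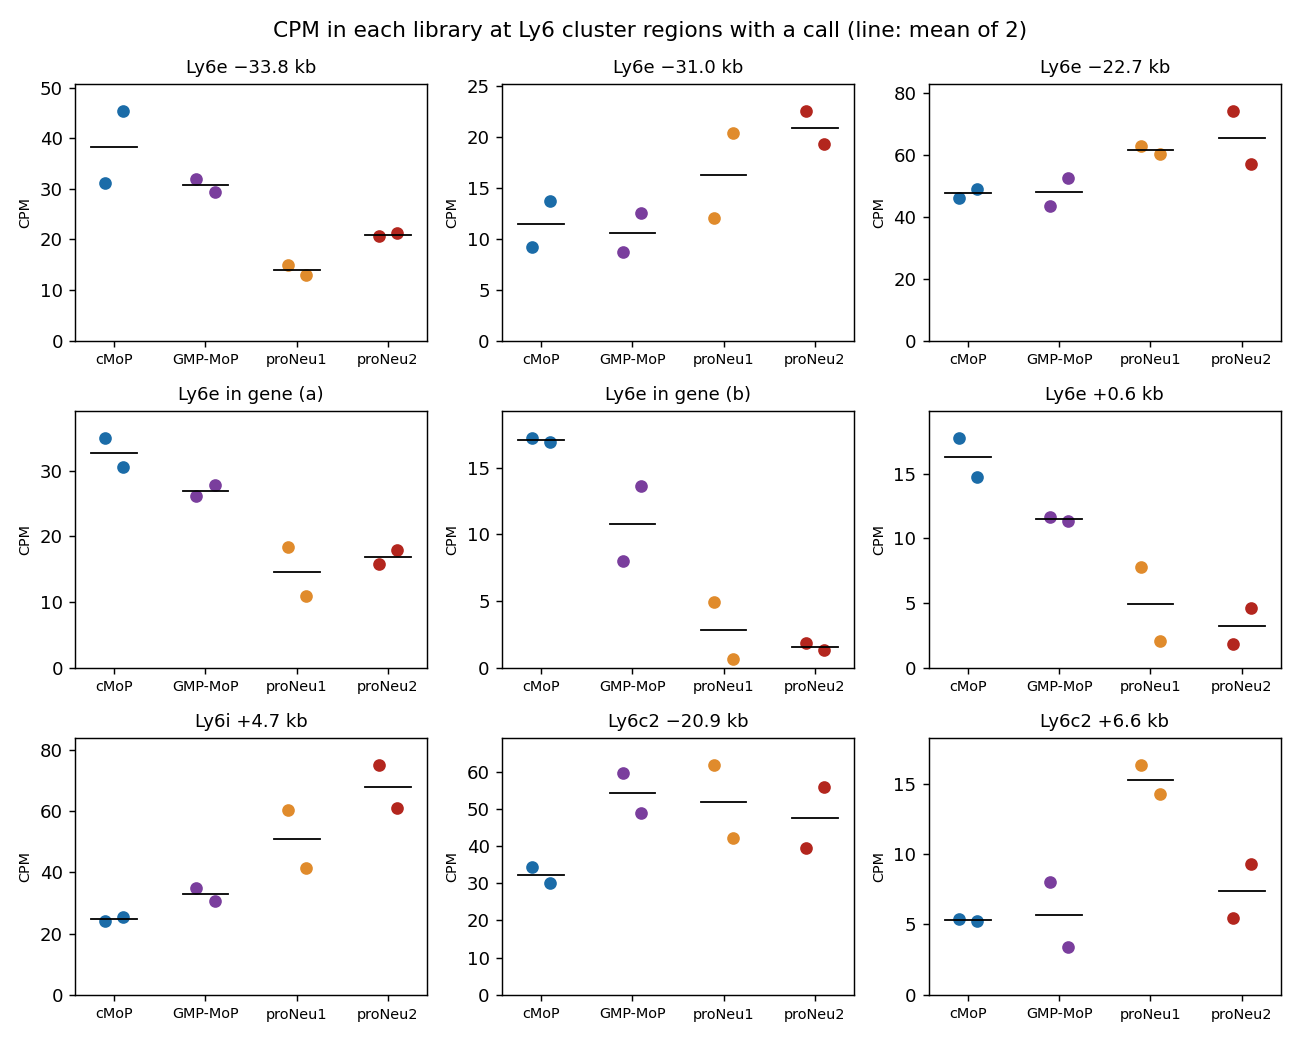
CPM in each of the 8 libraries (points) and the group means (lines) for the 9 Ly6 regions called in at least 1 comparison, one panel per region, with a linear vertical axis from 0. Distances are signed, minus below and plus above the gene. Both proNeu groups lie below cMoP at 4 Ly6e regions and above it at the region between Ly6i and Ly6a. They also lie above it at the Ly6e region 22.7 kb below the gene and at the Ly6c2 regions shown.

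Ly6c2, which encodes Ly6C, had an open promoter region in all groups, and it was called in no comparison. The region at chr15:75111563-75112469, which holds the Ly6c2 promoter printed above, had 26.3 and 26.4 CPM in cMoP, 18.2 and 23.8 in GMP-MoP, 27.6 and 17.6 in proNeu1, and 18.2 and 19.9 in proNeu2. The proNeu1 libraries span the range of the others. The widest difference was that of proNeu2 from cMoP (-0.47, adjusted p 0.112).

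Away from the start, Ly6c2 regions did differ. At chr15:75086071-75087248, 20.9 kb below the gene and so past its transcript end, cMoP had 34.4 and 30.1 CPM, GMP-MoP 59.5 and 48.8, proNeu1 61.6 and 42.0, and proNeu2 39.5 and 55.8. All other libraries lay above both cMoP libraries, and the other groups overlapped one another. Against cMoP this region rose by 0.73 log2 units (SE 0.197, adjusted p 0.00966) in GMP-MoP, by 0.68 log2 units (SE 0.201, adjusted p 0.00323) in proNeu1 and by 0.55 log2 units (SE 0.201, adjusted p 0.0143) in proNeu2. These comparisons share the cMoP libraries. The GMP-MoP call ended with DESeq2 (0.624), without cMoP replicate 2 (0.113) and without GMP-MoP replicate 1 (0.165), and the proNeu1 call with loess offsets (0.38, adjusted p 0.112), DESeq2 (0.111) and without proNeu1 replicate 1 (0.42, adjusted p 0.198). The proNeu2 call ended with total counts (0.0567), loess offsets (0.23, adjusted p 0.346), DESeq2 (0.157) and without cMoP replicate 2 (0.0808) or proNeu2 replicate 2 (0.36, adjusted p 0.272), and the difference was 0.84 without proNeu2 replicate 1.

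Upstream of Ly6c2, the region at chr15:75118676-75119252, 6610 bp above the gene, was highest in proNeu1. It had 5.38 and 5.28 CPM in cMoP, 7.99 and 3.401 in GMP-MoP, 16.3 and 14.2 in proNeu1, and 5.47 and 9.29 in proNeu2. Both proNeu1 libraries lay above all 6 others, which overlapped. In proNeu1 it rose by 1.50 log2 units against cMoP (SE 0.398, adjusted p 0.000914), and GMP-MoP was lower than proNeu1 by a log2 difference of -1.48 (SE 0.415, adjusted p 0.00412). The difference of proNeu2 from proNeu1, -1.05, was not called (p 0.00690, adjusted p 0.324). DESeq2 ended both calls (0.0797 and 0.179), and the second ended without GMP-MoP replicate 2 (-0.93, adjusted p 0.232) and was -2.16 without GMP-MoP replicate 1. Of the other 3 upstream regions none was called. The one 7883 bp above the gene had an adjusted p of 0.0556 for proNeu2 against cMoP. The one 5321 bp above it, with 46 counts in all, did not pass the filter. With no filter on low counts both were called higher in proNeu2 than in cMoP by edgeR. The log2 differences were 1.16 (adjusted p 0.0399) and 1.66 (SE 0.647, adjusted p 0.0244), with no share of all regions called in that setting given. At the 5321 bp region the proNeu2 counts were 13 and 5 in replicates 1 and 2, against 3 and 4 in cMoP.

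The remaining genes gave no calls with the filter on low counts. Ly6c1, the other gene of the Ly6C antigen, had 4 regions and none in the gene. Its highest, chr15:75061889-75062903, 12969 bp above the gene over the pseudogene Gm5960, had 15.05 and 20.6 CPM in cMoP, 22.5 and 19.8 in GMP-MoP, 20.5 and 19.7 in proNeu1, and 26.8 and 23.2 in proNeu2. Only the proNeu2 libraries lay above every other one, and the difference from cMoP was not called (p 0.0609, adjusted p 0.103).

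Ly6a, the Sca-1 gene, and Ly6g, the Ly6G gene, had 1 weak region each, and neither passed the filter. The Ly6a region, chr15:75019477-75020002, 21446 bp above the gene, held 56 counts in all, with 4.84 and 4.75 CPM in cMoP, 6.54 and 2.27 in GMP-MoP, 5.67 and 4.07 in proNeu1, and 3.04 and 3.98 in proNeu2. The cMoP values lie within the GMP-MoP and proNeu1 ranges and above proNeu2. With no filter it was called in no comparison. The Ly6g region, chr15:75175504-75176026, 16376 bp past the gene, held 48 counts, with 1.61 and 3.17 CPM in cMoP, 2.18 and 2.27 in GMP-MoP, 4.96 and 3.39 in proNeu1, and 6.08 and 6.64 in proNeu2. The proNeu libraries were higher than all others, at levels of only a few times that of 3 counts. With no filter, proNeu2 was called higher than cMoP by a log2 difference of 1.46 (SE 0.595, adjusted p 0.0316) and the difference of GMP-MoP from proNeu2 was -1.52 (adjusted p 0.0509). Neither gene had a region over its gene interval.

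**Figure D3:**
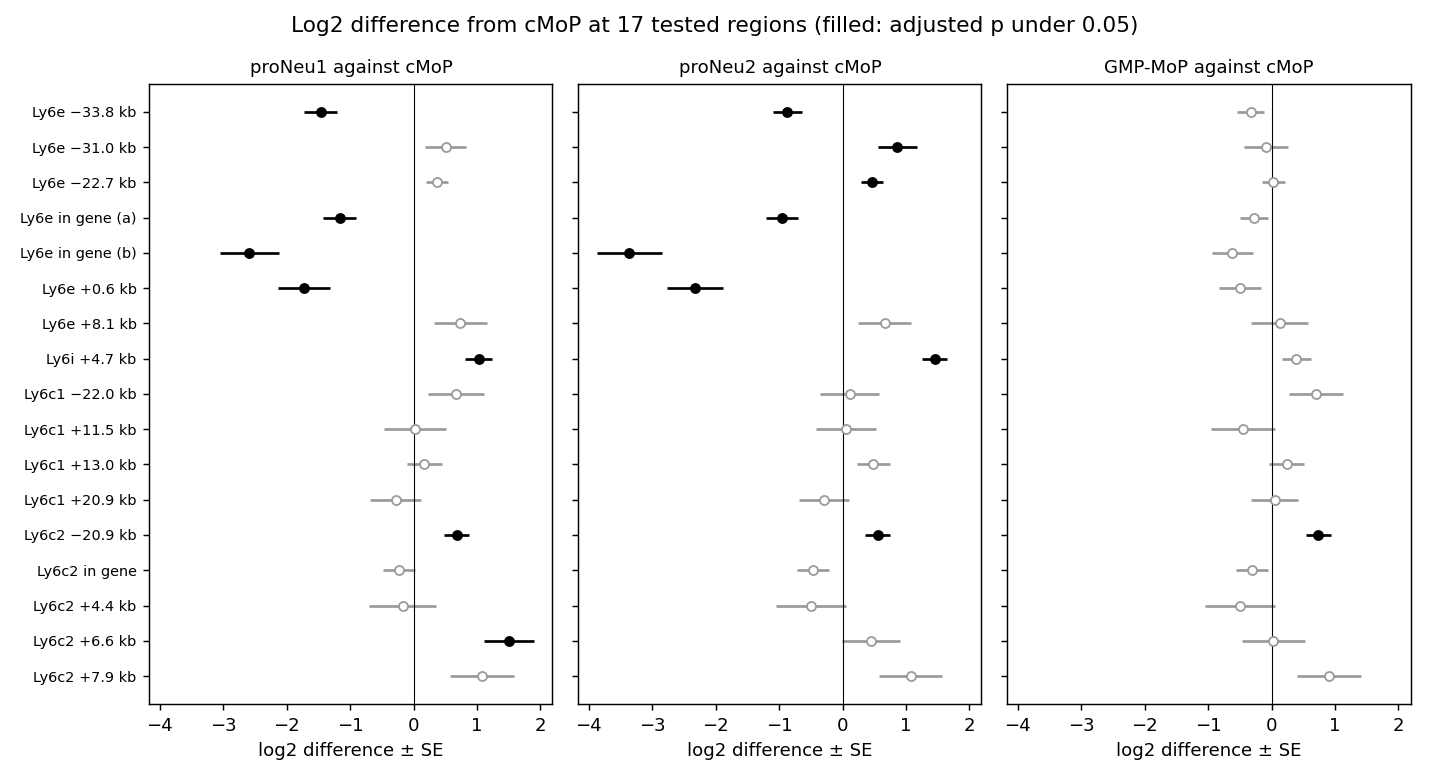
Log2 difference from cMoP (horizontal axis, edgeR estimate ± SE) of the 17 tested Ly6 regions in proNeu1, proNeu2 and GMP-MoP, filled where the adjusted p is under 0.05. The cMoP-high Ly6e regions lie left of 0 and the region between Ly6i and Ly6a right of 0, with GMP-MoP between 0 and the proNeu groups.

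Summed over the regions of each gene, Ly6e fell from 183 ± 19.0 CPM in cMoP (SD, n = 2) to 123 ± 2.53 in proNeu1 and 136 ± 8.80 in proNeu2, with 158 ± 21.1 in GMP-MoP. The sum holds regions of both patterns, and its log2 differences from cMoP were -0.57 (adjusted p 0.000130) for proNeu1 and -0.43 (adjusted p 0.00169) for proNeu2. GMP-MoP exceeded proNeu1 by 0.36 (adjusted p 0.0257). Of these, the proNeu2 call ended without cMoP replicate 2 (0.0577), and the GMP-MoP call with DESeq2 (0.144) and without proNeu1 replicate 1 (0.0721) or 2 (0.126) or GMP-MoP replicate 2 (0.21, adjusted p 0.392). The sum of Ly6c2 was 81.3 ± 2.82 CPM in cMoP, 101.7 ± 7.07 in GMP-MoP, 106.8 ± 22.9 in proNeu1 and 89.6 ± 14.5 in proNeu2, and only proNeu1 against cMoP was called (0.39, adjusted p 0.0262). That call ended with loess offsets (0.0964), DESeq2 (0.190) and without cMoP replicate 1 (0.117) or 2 (0.0732) or proNeu1 replicate 1 (0.16, adjusted p 0.495), and the difference was 0.60 without proNeu1 replicate 2. Ly6c1 stayed between 43.2 ± 12.2 and 49.3 ± 1.32 CPM in the 4 groups with no call. Ly6i rests on its 1 region with the scaling of the gene table, and was called in proNeu1 and proNeu2 against cMoP (0.90 and 1.31, adjusted p 0.000405 and 9.78e-08) and in GMP-MoP against proNeu2 (-0.91, adjusted p 0.000107). The first of these ended without proNeu1 replicate 1 (0.0541). In all 7 of 24 gene-level tests were called, beside 3.34, 28.6, 46.7, 41.3, 54.4 and 0.348% of all 14933 genes in GMP-MoP against cMoP, proNeu1 and proNeu2, proNeu1 and proNeu2 against cMoP, and proNeu2 against proNeu1. These shares are for single comparisons, so the pooled count has no background of its own and is not read as a result about Ly6.

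**Figure D4:**
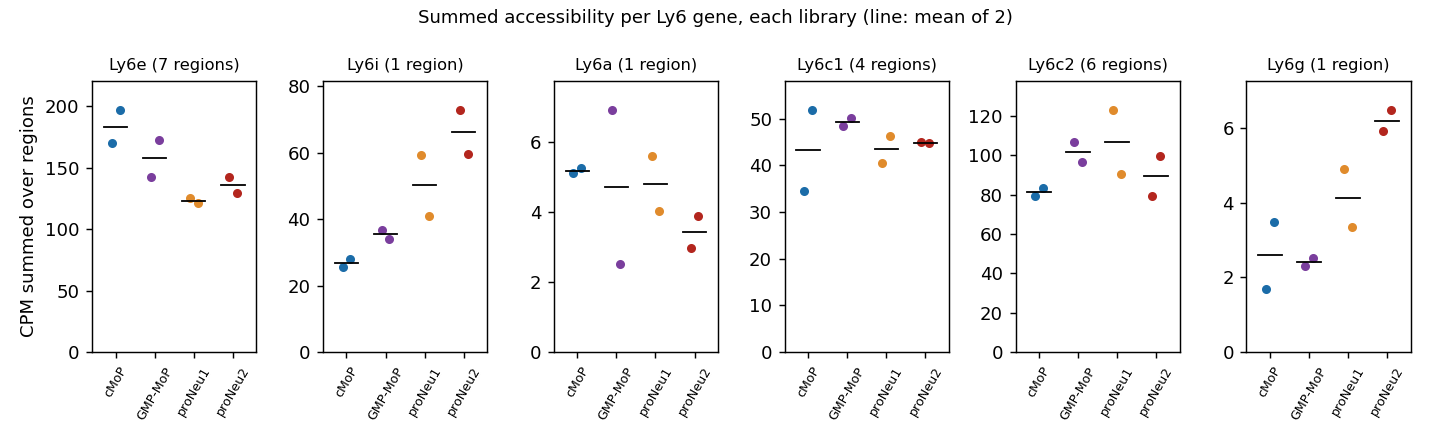
Summed CPM over all regions of each Ly6 gene, with each library as a point and the group mean as a line, on linear axes from 0. Ly6e is highest in cMoP and the Ly6i region highest in proNeu2, while Ly6a and Ly6g rest on 1 region each that did not pass the filter.

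The wider LY6/uPAR family was followed through lists. Of 15 further family genes near the cluster on chromosome 15, 6 had a region and 6 regions were tested. Regions called higher and lower numbered 0 and 0 for GMP-MoP against cMoP, 0 and 1 against proNeu1, 2 and 2 against proNeu2, 1 and 1 for proNeu1 against cMoP, 2 and 3 for proNeu2 against cMoP, and 0 and 0 for proNeu2 against proNeu1. Of 20 family genes elsewhere, 13 had a region and 29 regions were tested, with 0 and 0, 3 and 1, 5 and 5, 5 and 5, 10 and 6, and 0 and 0 in the same order. The called shares of these 29 were 13.8, 34.5, 34.5 and 55.2% in GMP-MoP against proNeu1, GMP-MoP against proNeu2, proNeu1 against cMoP and proNeu2 against cMoP, beside 24.1, 39.2, 42.4 and 52.6% of all regions. For the 6 regions near the cluster the shares were 16.7, 66.7, 33.3 and 83.3% in that order. Neither list had a call in GMP-MoP against cMoP or proNeu2 against proNeu1, where 5.45 and 0.0758% of all regions were called.

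The family regions named next were chosen after their values were seen, to show both directions. Cd177, a neutrophil surface protein, had a region in the gene at 5.32 ± 0.685 CPM in cMoP, 4.85 ± 2.76 in GMP-MoP, 32.2 ± 1.46 in proNeu1 and 43.6 ± 4.95 in proNeu2. It rose against cMoP by 2.58 log2 units in proNeu1 (adjusted p 2.89e-12) and by 3.01 in proNeu2 (adjusted p 1.67e-18). A second region in Cd177 fell in proNeu1, from 7.72 ± 1.03 CPM in cMoP to 2.43 ± 0.564 (log2 difference -1.64, adjusted p 0.0143). Plaur, the urokinase receptor, was also mixed: in proNeu2 against cMoP 2 of its regions rose (0.59 and 1.74, adjusted p 0.0236 and 0.000590) and 1 fell (-0.92, adjusted p 0.0197). Lypd6, a family gene outside the cluster, had 4 regions that fell in both proNeu groups. One was at 11.2 ± 0.898 CPM in cMoP and 5.25 ± 1.81 in GMP-MoP and had no counts in proNeu1 or proNeu2 (adjusted p 3.44e-08 and 6.77e-09 against cMoP). Against a floor of 3 counts per library it was at least 5.38-fold lower in proNeu1 and at least 5.87-fold lower in proNeu2 than in cMoP. Without proNeu counts it passed the filter on low counts only through the other groups.

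By the highest Pearson correlation of log2 CPM over the 8 libraries, the regions most like the Ly6i region were linked to Creb3l2 (0.995), Xpnpep3 (0.994) and Cenpf (0.994). Those most like the 22.7 kb Ly6e region were linked to Wdr77 (0.993), Pik3c2a (0.976) and Sema4a (0.975), those like the 20.9 kb Ly6c2 region to Taok3 (0.972), Gtf2e2 (0.971) and Cd1d1 (0.960), and those like the Ly6c1 region to Mast2 (0.989), Nr2c1 (0.975) and Rgs7 (0.970). All share the same 8 libraries, and the highest of 47506 regions are high by selection.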

How the data were processed

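ATAC-seq read counts per region were deposited by the authors for 8 libraries, 2 in each of 4 groups taken from the labels, as whole-number counts over the same 61196 regions. The authors used the mm10 build with HOMER 4.11, Bowtie2 2.3.5.1 and edgeR 3.32.1, per the submitters' processing notes; for Tn5 shifting, duplicate and mitochondrial filtering, region calling and reads matching several loci, no method is given in the sources used here. Regions were linked to the nearest protein-coding interval within 50 kb, which covered 88.1% of them. The quasi-likelihood test of edgeR 4.0.16 in R 4.3.3 was fitted robustly to all 8 libraries, after TMM and filterByExpr (minimum count 10), with Benjamini-Hochberg adjustment over 47506 regions. DESeq2 1.42.0 served as an alternative, beside other scalings, filters and links, a replicate block and each library left out. An SE is the log2 difference divided by the square root of F. The labels name biological replicates without saying that animals were separate, and a p-value covers only the spread of these libraries, possibly a technical one. PCR reads are not independent molecules. Replicate differences correlated at -0.0149 to 0.0731 between groups, so no shift shared by libraries of the same number was seen. This cannot show whether such libraries came from the same animals or sort. Values are given for every called region and the highest region of each gene; the likeness list takes 3 genes for each highest region that passed the filter. The members and lists were chosen with earlier results of these data known. Counts were also simulated for GMP-MoP against cMoP over 47506 regions, with 50 changed at each of 1.5, 2, 3 and 4 fold. The fit recovered 12, 72, 92 and 98% of the changed regions and called 8 of 47306 unchanged ones. The changed regions were drawn only from those above a minimum mean count, and all regions shared a common spread. These rates therefore do not cover weaker regions or regions with a wider spread. Promoters came from RefSeq and were aligned with Biopython 1.88.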

Additional observations from a re-analysis of the deposited data

How the results depend on the processing

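Of the 28 region calls, 10 held under all 15 settings run, 12 held when each library was left out, and 0 reversed. DESeq2 ended 16, loess offsets 6 and total counts 4, and DESeq2 size factors in the edgeR fit ended 0. The cause was not tested. No share over all regions is given for the alternative settings, so counts of calls under them have no background beside them. With DESeq2 the count of called Ly6 regions was 0 for GMP-MoP against cMoP, 0 against proNeu1 and 2 against proNeu2, and 5 for proNeu2 against cMoP. With links within 10 kb it was 0 for GMP-MoP against cMoP and 4 for proNeu2 against cMoP, since fewer regions are members. Leaving out each library gave 0 to 1 (GMP-MoP against cMoP), 1 to 6 (against proNeu1), 2 to 6 (against proNeu2), 6 to 8 (proNeu1 against cMoP), 6 to 11 (proNeu2 against cMoP) and 0 to 0 (proNeu2 against proNeu1) regions, and 4 to 8 gene sums; with a library out, its lone partner took the spread of the remaining groups. With the replicate block the region counts were 1, 6, 6, 7, 8 and 0, as without it, and 8 gene sums were called in place of 7.

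Scaling by total counts moved the median of all regions by 0.13 and 0.15 for GMP-MoP against proNeu1 and proNeu2 and by -0.10 and -0.13 for proNeu1 and proNeu2 against cMoP. Higher and lower calls were then 4 and 1, 4 and 2, and 2 and 5 for GMP-MoP against proNeu1, GMP-MoP against proNeu2 and proNeu2 against cMoP. With loess offsets they were 3 and 1, 5 and 2, and 3 and 4. With no filter on low counts proNeu2 against cMoP gave 11 calls, 7 higher and 4 lower, among them the Ly6g region and 1 Ly6c2 region that the main filter left out. In fits of only the compared groups they were 4 and 2 for GMP-MoP against proNeu2 and 6 and 4 for proNeu2 against cMoP. Linking by start site was not run, since start sites were used for 3 of the 6 genes only. The Ly6a and Ly6g regions and 1 Ly6c2 region had too few counts for the filter and were tested only without it. The cause of their low counts was not tested.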

Other observations

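Ly6a2, a gene inside the cluster that was not on the list and was looked at after its values were seen, had 3 linked regions. The one at chr15:75137446-75138460, 2318 bp above the gene, had 13.4 and 8.45 CPM in cMoP, 10.2 and 15.3 in GMP-MoP, 25.5 and 25.1 in proNeu1, and 24.3 and 30.5 in proNeu2. The proNeu libraries lay above all others, and cMoP overlapped GMP-MoP. It was higher than cMoP by 1.21 log2 units (edgeR, SE 0.295, adjusted p 0.000327) in proNeu1 and by 1.32 (SE 0.285, adjusted p 3.01e-05) in proNeu2, and GMP-MoP was lower than proNeu1 by a log2 difference of -0.95 (adjusted p 0.0103). A region 6376 bp above the gene was higher in proNeu2 than in cMoP by 0.69 (adjusted p 0.0129), and the region in the gene was not called.

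Ly6l, a family neighbour on chromosome 15, had a region at chr15:75433069-75433747 with means of 0.269 CPM in cMoP, 0.647 in GMP-MoP, 4.87 in proNeu1 and 7.60 in proNeu2. It was called higher in proNeu2 (adjusted p 1.22e-05) and proNeu1 (adjusted p 0.00137) than in cMoP by edgeR, with the cMoP and GMP-MoP means below the level of 3 counts. The region passed the filter on low counts only through the proNeu groups, where it is high, and was picked from the family list after its values were seen.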
